A study of Mus musculus with 9 samples.

Results

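A set of 10 genes of IL-6 family signalling was followed through 9 RNA-sequencing libraries of the mouse atrioventricular (AV) node, the small cardiac structure that relays and delays the electrical impulse between atria and ventricles. The genes were taken by symbol from the deposited table of 34198 gene symbols, as the ligands Il6 and Lif, the receptors Il6st, Il6ra, Osmr and Lifr, the transcription factor Stat3, the feedback inhibitors Socs3 and Socs2, and the kinase gene Pim1. All 10 symbols were in the table, and 10 of 10 passed the filter on low values that left 12925 genes for testing (at least 1 CPM, the deposited read count scaled by library size, in at least 3 libraries). Il6 passed it only through the Cd11bDTR libraries, where it was high, so its difference between groups is partly set by the filter. Lif passed it only through control and Cx3cr1 Cx43-/- libraries, so the same limit holds for Lif.

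The nodes came from C57BL/6J mice in 3 groups of 3 libraries. Libraries 7, 8 and 9 were from Cd11bDTR mice, which the labels call macrophage-depleted. In this model the diphtheria toxin receptor is driven by the promoter of Cd11b (Itgam), which is also active in monocytes and neutrophils. Libraries 4, 5 and 6 were from Cx3cr1 Cx43-/- mice, in which Gja1 (connexin 43) is deleted in cells that use the Cx3cr1 promoter, macrophages and monocytes among them. Libraries 1, 2 and 3 were from mice with the genotype Control. The toxin dose, the time after it, the age and sex of the mice, pooling of nodes, and whether controls received toxin or carried a Cre or receptor transgene are not given in the sources used here. The 3 libraries of a group are called biological replicates by the design text.

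Cytokines of the IL-6 family signal through the shared receptor chain gp130, encoded by Il6st. IL-6 binds Il6ra, leukaemia inhibitory factor binds Lifr, and oncostatin M in mice acts mainly through Osmr, each together with gp130. Janus kinases on the receptor then phosphorylate STAT3, which enters the nucleus and switches on genes that include Socs3, the inhibitor that blocks gp130 and its kinases. In the heart the pathway is known for its part in the acute response of cardiomyocytes and fibroblasts to injury and inflammation.

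The sequence before the transcription start is shown for the ligand gene Il6 and the feedback gene Socs3, since they gave the largest differences among the 10 genes by ratio of mean CPM. The windows are RefSeq sequence of build GRCm38.p6, 250 bases before the gene's start, and 9 of the 10 genes had an entry, with 11 windows in all. Capitals mark a match to the STAT motif TTCNNNGAA, the AP-1 motif TGANTCA or the NF-kB motif on either strand, with no overlap between matches here. The Il6 window is chr5:30012864-30013113 on the plus strand. For Socs3 the first 165 bases of its window are printed, chr11:117969452-117969616 on the minus strand, because the remainder overlaps an exon of another Socs3 transcript in GENCODE M21.
Il6: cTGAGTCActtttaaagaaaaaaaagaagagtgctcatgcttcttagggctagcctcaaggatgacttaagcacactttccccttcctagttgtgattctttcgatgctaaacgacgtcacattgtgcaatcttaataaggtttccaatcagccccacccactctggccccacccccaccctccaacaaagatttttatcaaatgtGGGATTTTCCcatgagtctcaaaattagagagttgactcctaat
Socs3: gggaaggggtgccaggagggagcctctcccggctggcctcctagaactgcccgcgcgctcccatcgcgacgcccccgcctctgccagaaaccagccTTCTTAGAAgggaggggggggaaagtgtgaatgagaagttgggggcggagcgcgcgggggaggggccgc
The Il6 window held TGAGTCA, beginning 249 bases before the start, and GGGATTTTCC, beginning 44 bases before it. Among 32851 RefSeq windows of the same length, 6.75% held TGANTCA and 0.356% held the NF-kB motif, searched as the match above with any base in place of its first T. The Socs3 window held TTCTTAGAA, beginning 154 bases before the start, and 7.02% of all windows held TTCNNNGAA. The stricter form TTCCNGGAA was in 0 of the members' windows and in 0.913% of all. The motifs were chosen with the sequences in view, and a match of letters is a description of the window only.

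Reads in listed genes made up 28.3% to 44.0% of the CPM denominator in Cd11bDTR libraries, 46.8% to 47.9% in Cx3cr1 Cx43-/- libraries and 42.8% to 48.7% in control libraries. A single read was worth 0.0154 to 0.0192 CPM, so 1 CPM stood for 52.1 to 64.9 reads. Over the 12925 genes the log2 change had a median of -0.49 for Cd11bDTR against control and of 0.07 for Cx3cr1 Cx43-/- against control. The label of the Cd11bDTR group was checked on 16 resident macrophage markers. Their summed level was 68.4 to 79.7 CPM in Cd11bDTR, 447.6 to 579.6 CPM in Cx3cr1 Cx43-/- and 301.8 to 450.6 CPM in control, and 13 of the 16 were lower in Cd11bDTR than in control by the test below. By that test 33.0% of all genes were lower. Summed AV node markers (10 genes, Hcn4 and Tbx3 among them) stood at 79.9 to 137.6, 318.4 to 409.9 and 385.1 to 490.5 CPM in the same order of groups, and summed cardiomyocyte markers (8 genes) at 11750 to 21670, 26080 to 27540 and 23060 to 28030 CPM. Of 9 AV node markers tested 7 were lower than in control, with a median log2 change of -1.32. Only 2 of the 8 cardiomyocyte markers were lower, with a median of -0.48 beside -0.49 over all genes. Gja1 was at 179, 229 and 249.99 CPM in Cx3cr1 Cx43-/- nodes against 246, 163 and 211 CPM in control nodes, so the groups overlapped and whole tissue does not check the deletion. Itgam, whose promoter drives the receptor transgene, was at 9.72, 2.34 and 7.35 CPM in Cd11bDTR nodes against 8.93, 1.64 and 5.37 CPM in control nodes, also overlapping.

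The first comparison asked how the pathway stood in nodes depleted of macrophages. Socs3, Osmr and Il6 were higher in Cd11bDTR than in control nodes and Lifr was lower, while Stat3, Il6st, Il6ra, Lif, Socs2 and Pim1 did not pass the test. Genes were called at a limma adjusted p under 0.05, with p-values adjusted over all 12925 genes. Of all genes 36.2% were called, 3.23% higher and 33.0% lower, beside 3 higher and 1 lower of the 10. Il6 is among the 3 higher and passed the filter only through the Cd11bDTR libraries. The 10 genes were chosen with earlier results of these data known, so their shares called, here and below, can reflect that choice. Log2 changes refer to CPM with 0.5 added, so those of low genes come out too small. In bulk tissue, fewer cells of a type and less RNA per cell cannot be told apart.

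**Figure D1:**
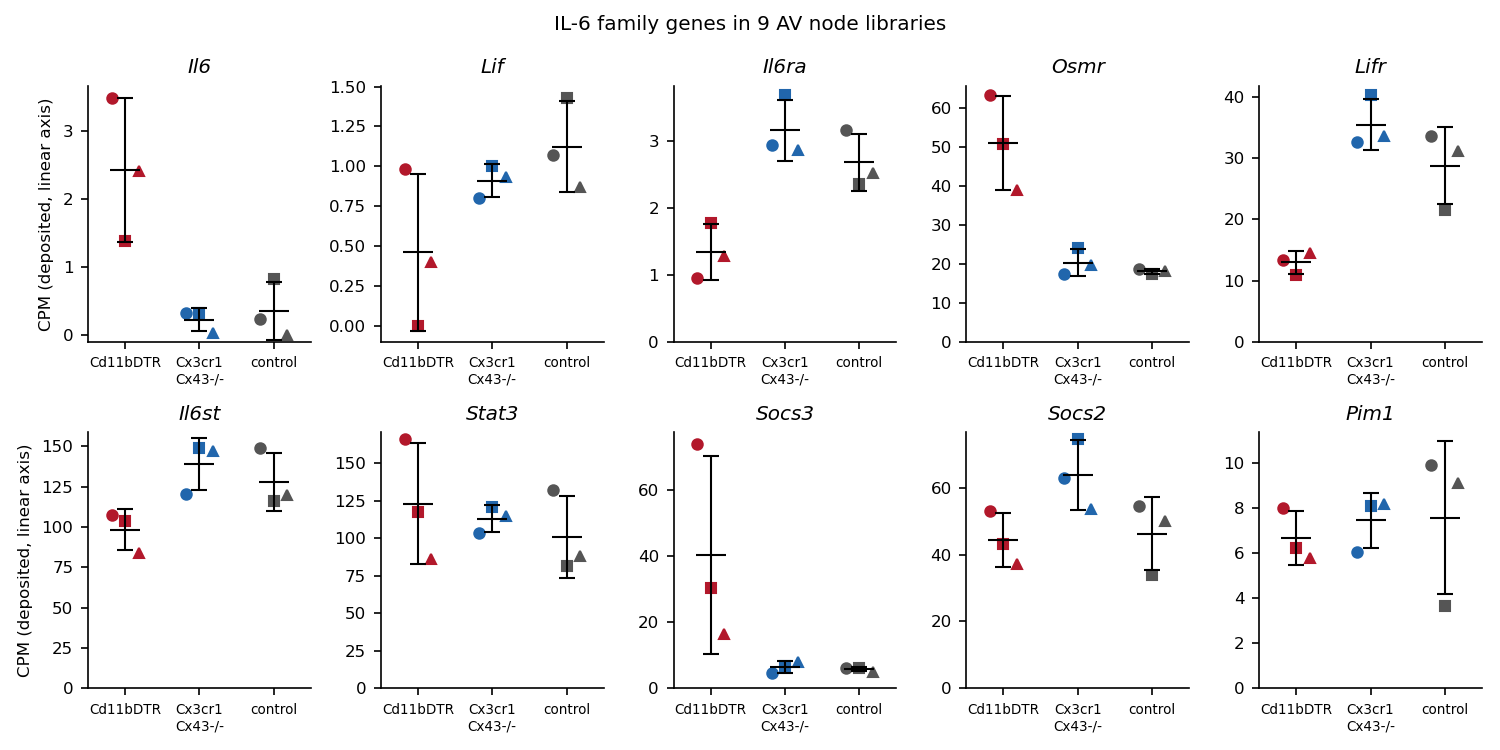
CPM of each of the 10 genes in Cd11bDTR (red), Cx3cr1 Cx43-/- (blue) and control (grey) libraries on linear axes. The 3 symbol shapes mark the 3 libraries of a group, and bars are the mean with its SD. Socs3, Osmr and Il6 lie higher in all 3 Cd11bDTR libraries than in the other 6, and Lifr, Il6ra and Il6st lie lower. Of the lower genes only Lifr was called against control.

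Of the ligand genes, Il6 passed the test and Lif did not. Il6 encodes the founding cytokine of the family. It stood at 3.49, 1.38 and 2.42 CPM in Cd11bDTR nodes, at 0.33, 0.32 and 0.03 CPM in Cx3cr1 Cx43-/- nodes and at 0.24, 0.82 and 0 CPM in control nodes. The 3 Cd11bDTR libraries were the highest of all 9 and did not overlap the others, though even the highest held only about 202 reads of the gene. Only these 3 libraries reached 1 CPM, so the filter fixed this order in advance and it is no separate support. The zero in control library 3 allows a level of up to 0.0523 CPM, the worth of 3 reads. The log2 change over control was 1.83 (SE 0.48, limma adjusted p = 0.00536). Its size follows the pseudocount, with 2.91 at a pseudocount of 0.1 and 0.90 at 2, both called. With no filter the limma adjusted p was 0.0224.

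Lif encodes leukaemia inhibitory factor. It was at 0.98, 0 and 0.40 CPM in Cd11bDTR nodes, at 0.80, 1.0 and 0.93 CPM in Cx3cr1 Cx43-/- nodes and at 1.07, 1.43 and 0.87 CPM in control nodes. Library 8 held 0 reads, which allows up to 0.0576 CPM, and library 7 lay inside the control range, so the groups overlapped. The log2 change of -0.88 had a 95% interval of -1.82 to 0.06 (limma adjusted p = 0.13). It passed the test without Cd11bDTR library 7 (log2 change -1.26, limma adjusted p = 0.0303). Lif reached 1 CPM only in control and Cx3cr1 Cx43-/- libraries, so its lower direction is partly set by the filter.

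Among the receptors, Osmr and Lifr moved apart. Osmr encodes the oncostatin M receptor chain. It was at 63.4, 50.9 and 39.1 CPM in Cd11bDTR nodes, at 17.4, 24.1 and 19.6 CPM in Cx3cr1 Cx43-/- nodes and at 18.8, 17.5 and 18.1 CPM in control nodes. Every Cd11bDTR library was above each of the other 6, and the control libraries lay between 17.5 and 18.8 CPM. The mean was 51.2 ± 12.1 CPM in Cd11bDTR against 18.1 ± 0.615 CPM in control (SD, n = 3 each). In limma this was 1.44 on the log2 scale (SE 0.22, adjusted p = 5.21e-05). The spread among Cd11bDTR libraries followed their share of reads in listed genes. With every library rescaled so that its listed genes add up to the same total, Osmr was at 144.2, 134.9 and 138.3 in Cd11bDTR libraries, and 38.5, 40.9 and 39.96 in control libraries.

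Lifr encodes the receptor chain for leukaemia inhibitory factor. It was at 13.4, 10.9 and 14.6 CPM in Cd11bDTR nodes, at 32.6, 40.3 and 33.6 CPM in Cx3cr1 Cx43-/- nodes and at 33.6, 21.6 and 31.1 CPM in control nodes. All 3 Cd11bDTR libraries were below the lowest of the other 6. The log2 change over control was -1.11 (SE 0.23, limma adjusted p = 0.000872). Lifr fell further than the median gene, by 1.11 against 0.49 on the log2 scale.

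Il6ra, the chain that binds IL-6 itself, was at 0.95, 1.78 and 1.29 CPM in Cd11bDTR nodes, at 2.94, 3.69 and 2.87 CPM in Cx3cr1 Cx43-/- nodes and at 3.17, 2.36 and 2.53 CPM in control nodes. The Cd11bDTR libraries were the 3 lowest, yet the log2 change of -0.81 over control did not pass (95% interval -1.52 to -0.10, limma adjusted p = 0.0691). Without Cd11bDTR library 8 it did (-0.98, limma adjusted p = 0.0382). Macrophages and hepatocytes are known sources of Il6ra RNA, and the fall of resident macrophage markers stands beside this value. Their part in it was not tested.

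Il6st encodes gp130, the chain all these cytokines share. It was at 108, 104 and 83.6 CPM in Cd11bDTR nodes, at 120.3, 149 and 147 CPM in Cx3cr1 Cx43-/- nodes and at 149, 116 and 119.8 CPM in control nodes. The Cd11bDTR libraries were again the 3 lowest of the 9. The log2 change of -0.38 over control did not pass the test (95% interval -0.80 to 0.04, limma adjusted p = 0.139), and it was smaller than the median change of all genes. Groups did not overlap for 3 of the 10 genes that were higher (Socs3, Osmr, Il6) and 3 that were lower (Lifr, Il6ra, Il6st), against 3.61% and 38.0% of all genes. For Il6 the filter fixed this separation.

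Stat3, the transcription factor downstream of gp130, was at 166, 117 and 86.2 CPM in Cd11bDTR nodes, at 103, 121 and 115 CPM in Cx3cr1 Cx43-/- nodes and at 132, 81.5 and 88.4 CPM in control nodes. The groups overlapped, and the log2 change of 0.27 over control did not pass (95% interval -0.22 to 0.76, limma adjusted p = 0.373). Its call depended on the scaling of the libraries. With libraries rescaled to a common total, as above for Osmr, the change was 0.61 (limma adjusted p = 0.00563). Median-of-ratios scaling gave 0.76 (limma adjusted p = 0.000885). On the deposited scale and without Cd11bDTR library 7 it was 0.03. On that common-total scale Stat3 was at 377, 311 and 305 in Cd11bDTR libraries against 271, 190.2 and 195 in control libraries.

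The feedback inhibitor Socs3 had the largest log2 change of the 10 genes. It was at 73.99, 30.5 and 16.6 CPM in Cd11bDTR nodes, at 4.57, 6.74 and 8.05 CPM in Cx3cr1 Cx43-/- nodes and at 6.14, 6.06 and 5.08 CPM in control nodes. The lowest Cd11bDTR library was above the highest of the other 6, and within Cd11bDTR the libraries differed by 4.47-fold from highest to lowest. The mean was 40.3 ± 29.96 CPM in Cd11bDTR against 5.76 ± 0.590 CPM in control (SD, n = 3 each). In limma this was 2.45 on the log2 scale (SE 0.36, adjusted p = 2.57e-05). The change was 1.88 without Cd11bDTR library 7, the highest, and 2.94 without library 9, the lowest. On the common-total scale the 3 Cd11bDTR libraries were still spread over 168.2, 80.7 and 58.6, and the control libraries stood at 12.6, 14.2 and 11.2.

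Socs2, which in other tissues mainly restrains growth hormone signalling through STAT5, did not follow Socs3. It was at 53.1, 43.0 and 37.1 CPM in Cd11bDTR nodes, at 63.0, 74.5 and 53.6 CPM in Cx3cr1 Cx43-/- nodes and at 54.6, 33.9 and 50.2 CPM in control nodes. The Cd11bDTR libraries lay within the control range, and the log2 change of -0.04 had a 95% interval of -0.51 to 0.42 (limma adjusted p = 0.891). The sign turned on the common-total scale (0.29, not called) and with median-of-ratios scaling, where the gene was called higher (0.44, limma adjusted p = 0.035).

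Pim1, a kinase gene that STAT3 and STAT5 are known to switch on in blood cells, was at 8.01, 6.20 and 5.79 CPM in Cd11bDTR nodes, at 6.04, 8.10 and 8.19 CPM in Cx3cr1 Cx43-/- nodes and at 9.92, 3.66 and 9.12 CPM in control nodes. All groups overlapped. The log2 change over control was -0.07, with a 95% interval of -0.73 to 0.59 (limma adjusted p = 0.872), and over the alternatives run it lay between -0.49 and 0.39, none called.

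**Figure D2:**
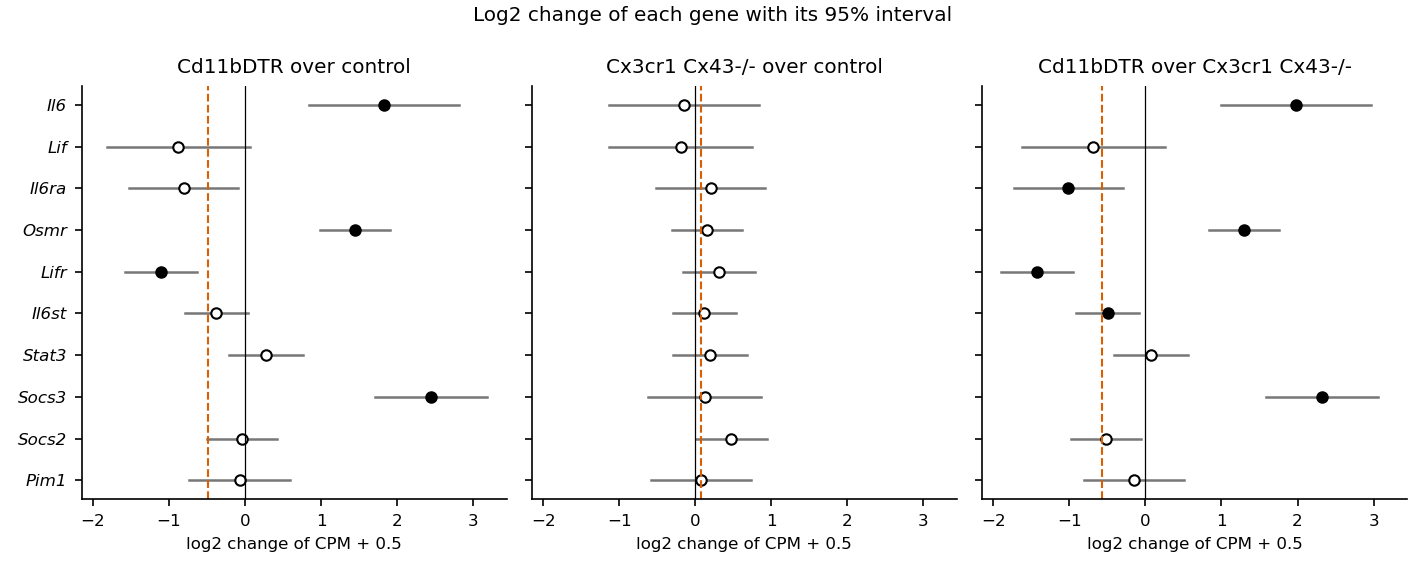
Log2 change of CPM + 0.5 for each gene in the 3 comparisons, with 95% intervals from limma. Filled points passed the adjusted threshold of 0.05, and the dashed line is the median of all 12925 genes. Socs3 (2.45), Il6 (1.83) and Osmr (1.44) lie right of 0 for Cd11bDTR over control, and no point is filled for Cx3cr1 Cx43-/- over control.

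Ratios of CPM inside a library do not depend on how libraries are scaled, although their absolute size also reflects transcript length. The ratio of Osmr to Lifr was 4.72, 4.69 and 2.69 in Cd11bDTR nodes, 0.535, 0.597 and 0.584 in Cx3cr1 Cx43-/- nodes and 0.559, 0.811 and 0.582 in control nodes. The balance of these receptor transcripts was therefore shifted towards Osmr in every Cd11bDTR library. The ratio of Socs3 to Stat3 was 0.446, 0.260 and 0.192 in Cd11bDTR nodes, 0.0443, 0.0557 and 0.0700 in Cx3cr1 Cx43-/- nodes and 0.0465, 0.0744 and 0.0575 in control nodes. Socs3 was thus raised relative to the RNA of its activator in all 3 libraries. These ratios were formed after the separate values were seen and carry no test.

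**Figure D3:**
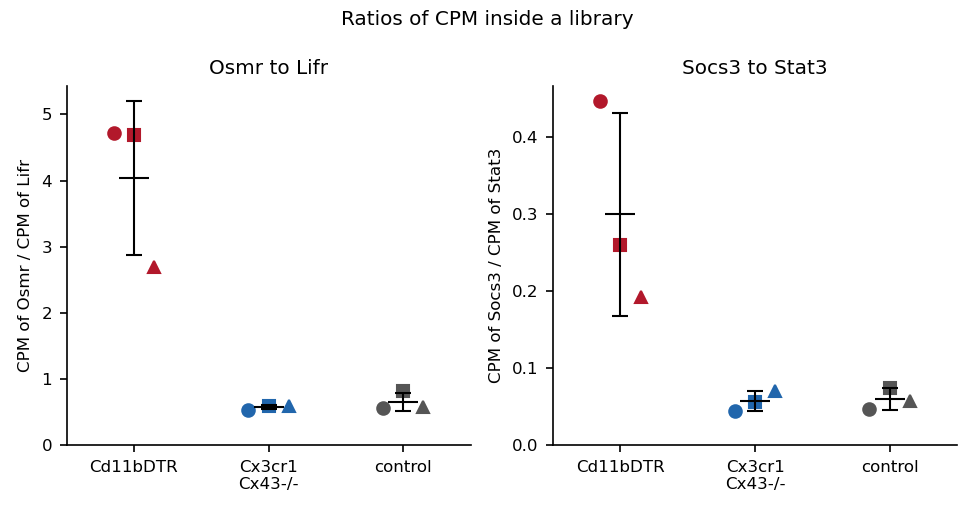
Ratio of the CPM of Osmr to that of Lifr, and of Socs3 to Stat3, in each library on linear axes, with group means and SD. The Osmr to Lifr ratio is 2.69 or more in Cd11bDTR libraries and 0.811 or less in the other 6 libraries.

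Rescaling moved the log2 changes of all 10 genes upwards, since Cd11bDTR libraries had on average the smallest share of reads in listed genes. On the common-total scale and then with median-of-ratios scaling Socs3 (2.77 and 2.92), Osmr (1.78 and 1.93) and Il6 (2.06 and 2.14) were still called higher than control, and Lifr (-0.78 and -0.63) was still called lower. Stat3 joined the higher genes under both scalings and Socs2 under the second. Il6st stood at -0.38 on the deposited scale and at 0.11 with median-of-ratios scaling, called in neither.

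**Figure D4:**
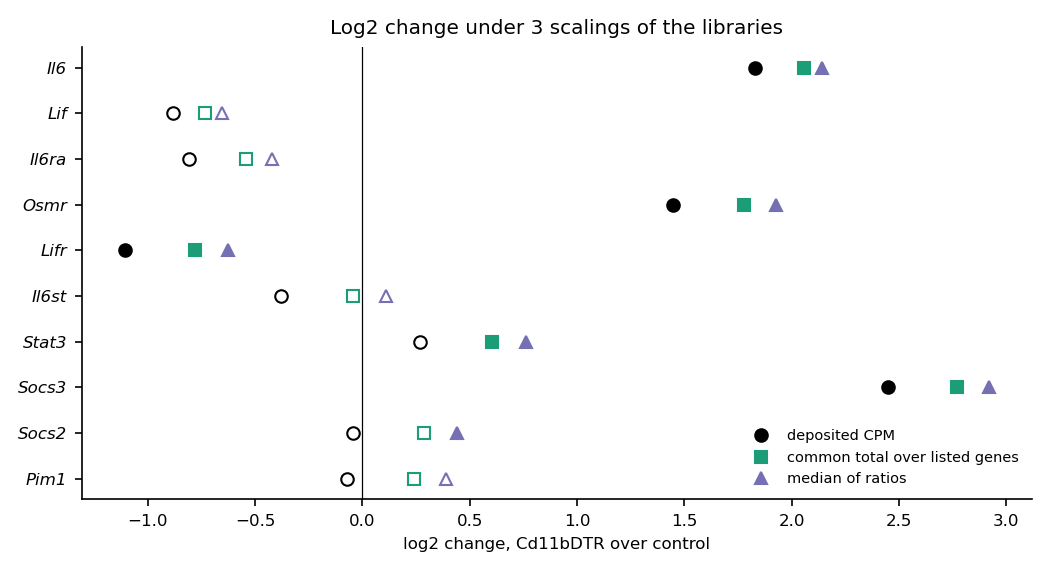
Log2 change for Cd11bDTR over control on the deposited CPM scale (circles), with a common total of listed genes (squares) and with median-of-ratios scaling (triangles). Filled symbols passed the adjusted threshold of 0.05. Socs3, Osmr, Il6 and Lifr are filled under all 3 scalings, Stat3 under 2 and Socs2 under 1.

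The second comparison asked whether loss of connexin 43 in Cx3cr1-expressing cells altered the pathway. None of the 10 genes was called by limma in Cx3cr1 Cx43-/- over control (0 of 10), where 0.00774% of all genes passed, a single gene, Cytl1, named here after its value was seen. By unadjusted p 191 of 12925 genes were under 0.05, and of the 10 genes 1 was, Socs2. Its mean was 63.7 ± 10.5 CPM in Cx3cr1 Cx43-/- against 46.2 ± 10.9 CPM in control (SD, n = 3 each), a log2 change of 0.47 (95% interval 0.01 to 0.94, unadjusted p = 0.0447, limma adjusted p = 1.0), with overlapping groups. For Socs3 the log2 change was 0.12 with a 95% interval of -0.62 to 0.86, for Osmr 0.15 (-0.31 to 0.61), for Lifr 0.32 (-0.15 to 0.79) and for Stat3 0.20 (-0.29 to 0.68). The libraries of the 2 groups overlapped for each of the 10 genes (0 of 10 apart in either direction), while 5.94% of all genes lay apart and higher and 3.0% apart and lower.

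The third comparison set Cd11bDTR against Cx3cr1 Cx43-/- nodes and so tested the difference between both changes, which share the control libraries. Socs3 (log2 change 2.32, SE 0.36, limma adjusted p = 4.51e-05), Il6 (1.97, SE 0.48, limma adjusted p = 0.00268) and Osmr (1.29, SE 0.22, limma adjusted p = 0.000157) were higher in Cd11bDTR. Lifr was lower (-1.42, SE 0.23, limma adjusted p = 6.85e-05), as were Il6ra (-1.01, SE 0.35, limma adjusted p = 0.0223) and Il6st (-0.50, SE 0.20, limma adjusted p = 0.0488). These 3 higher and 3 lower genes stand beside 2.69% and 40.7% of all genes (43.4% in either direction). Libraries did not overlap for 3 genes that were higher and 4 that were lower, against 3.39% and 50.6% of all genes. Il6 is among those higher genes, and its separation was fixed by the filter. The calls of Il6ra and Il6st were lost on the common-total scale (limma adjusted p = 0.112 for Il6ra and 0.507 for Il6st), with median-of-ratios scaling, with no filter and without any 1 of the Cx3cr1 Cx43-/- libraries. Il6st kept its call in only 3 of 16 alternatives, and lost it also in the fit of both groups alone, with robust empirical Bayes, without any 1 of the control libraries and without Cd11bDTR library 8 or 9. Il6st fell less than the median gene, whose log2 change was -0.58. Socs2 lay lower in all 3 Cd11bDTR libraries without passing the test (-0.52, limma adjusted p = 0.0634), though it passed without Cd11bDTR library 7 (-0.65, limma adjusted p = 0.0204), and Lif, Pim1 and Stat3 overlapped between the groups.

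Ordered by level, Socs3, Osmr and Il6 therefore stood highest in Cd11bDTR, and their Cx3cr1 Cx43-/- and control levels did not differ beyond their spread. For Il6 the place of Cd11bDTR as the highest group was fixed by the filter. Lifr stood lowest in Cd11bDTR, and its other 2 groups did not differ beyond their spread either. For Lif, Stat3, Socs2 and Pim1 no pair of groups passed the test on the deposited scale.

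Other genes of the pathway were taken from lists by role, 70 genes in all, of which 57 passed the filter. The lists were chosen with earlier results of these data known, so the shares called can reflect that choice. In Cd11bDTR over control 17 of the 57 were higher and 12 lower, with a median log2 change of -0.29 beside -0.49 over all genes. Over all genes 3.23% were higher and 33.0% lower, so the share of the 57 that was lower was below that of all genes. Rescaling to the common total gave 20 higher and 8 lower, and median-of-ratios scaling 23 higher and 6 lower. Over all 12925 genes the same scalings gave 1136 higher and 2534 lower, then 1687 higher and 1675 lower. Of the 28 STAT3 target genes 16 were higher, and of the 9 kinases and STAT factors 7 were lower. In Cx3cr1 Cx43-/- over control 0 of the 57 were called by limma in either direction.

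**Figure D5:**
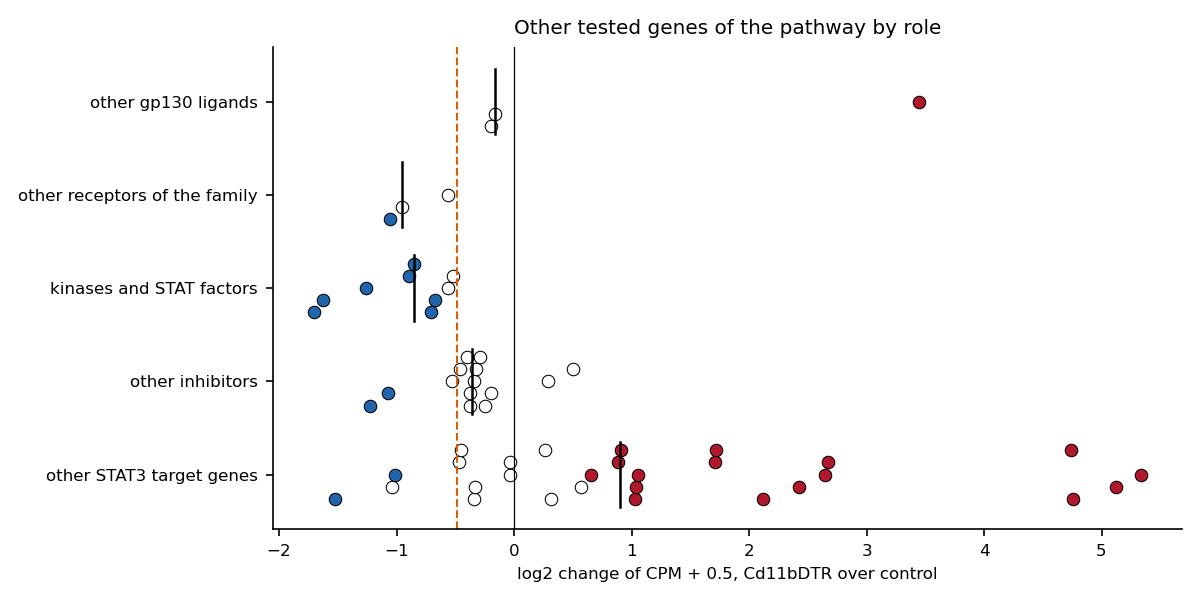
Log2 change for Cd11bDTR over control of the 57 other tested pathway genes, one point a gene, by role. Red points were called higher, blue points lower and white points not called, the short black lines are list medians and the dashed line is the median of all genes. Of the 28 target genes 16 are red and 2 blue, and of the 9 kinases and STAT factors 7 are blue.

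Osm, the ligand of the Osmr chain and named after its values were seen, was listed at 0 in all 3 Cd11bDTR libraries and at 0.22, 0 and 0.05 CPM in control, so the ligand was not detectable in Cd11bDTR at this depth, where 3 reads are worth 0.0462 to 0.0576 CPM. The ligand genes that failed the filter reached at most 0.94 CPM in any library.

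Of the other receptors tested, 1 of 3 was lower and 0 higher, a share near the 33.0% of all genes that were lower. Cntfr, the receptor chain for ciliary neurotrophic factor, was at 15.7, 6.33 and 3.10 CPM in Cd11bDTR against 18.4, 12.7 and 13.9 CPM in control (log2 change -1.06, limma adjusted p = 0.0272), with overlapping libraries. The call was lost without Cd11bDTR library 9 (-0.54, limma adjusted p = 0.228), without library 8, without control library 1 or 3, with no filter and under both other scalings.

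The 9 kinases and STAT factors had a median log2 change of -0.85. Stat5b fell to 21.3, 13.1 and 11.6 CPM in Cd11bDTR, against 55.6, 44.0 and 41.3 CPM in control (-1.62, SE 0.23, limma adjusted p = 1.83e-05). Stat5a, a closely related neighbour whose reads the counting could split with Stat5b, fell to 6.28, 6.81 and 4.43 CPM in Cd11bDTR, against 26.3, 14.4 and 20.6 CPM in control (-1.70, limma adjusted p = 3.62e-05). Both carry growth hormone, prolactin and many cytokine signals. The kinase gene Tyk2 fell as well (-1.26, limma adjusted p = 0.000924). With median-of-ratios scaling 3 of the 9 were lower, beside 1675 of all 12925 genes.

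Of 14 other inhibitors 2 were lower and 0 higher, a smaller share lower than the 33.0% of all genes. Pias3, which restrains DNA binding by STAT3, was at 9.39, 4.87 and 6.34 CPM in Cd11bDTR against 17.8, 15.2 and 15.6 CPM in control (-1.22, SE 0.25, limma adjusted p = 0.000909). Socs1, an inhibitor of Janus kinases that is strongest in interferon signalling, was at 2.11, 2.15 and 0.49 CPM in Cd11bDTR against 3.06, 4.56 and 3.05 CPM in control (-1.07, limma adjusted p = 0.0328). That call was lost under both other scalings, in the fit of both groups alone, with no filter and without Cd11bDTR library 9 (-0.60, limma adjusted p = 0.155) or any 1 of the control libraries.

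The STAT3 target genes had a median log2 change of 0.90, with 16 of 28 higher and 2 lower, and many of them answer to other factors too. Over all genes the median was -0.49, with 3.23% higher and 33.0% lower. This list was chosen with earlier results of these data known, so its share is no separate support. The acute phase genes Serpina3n, Lcn2 and Saa3 and the protease inhibitor Timp1 had the smallest p-values, with log2 changes of 5.12, 5.33, 4.76 and 4.74. Timp1 was at 439, 402 and 259.6 CPM in Cd11bDTR nodes, at 12.1, 12.3 and 12.3 CPM in Cx3cr1 Cx43-/- nodes and at 13.6, 12.3 and 12.8 CPM in control nodes. Lcn2 was at 133, 99.3 and 61.7 CPM in Cd11bDTR nodes, at 2.63, 2.09 and 0.92 CPM in Cx3cr1 Cx43-/- nodes and at 1.12, 2.12 and 2.48 CPM in control nodes. Saa3 was at 9.32, 34.0 and 9.86 CPM in Cd11bDTR nodes against 0.21, 0 and 0 CPM in control nodes, so the size of its change follows the pseudocount (3.03 to 6.66 over the alternatives). Saa3, like Il6, passed the filter only through the Cd11bDTR libraries, so its difference and its place among the 16 are partly set by the filter. Serpina3n belongs to a gene cluster of close copies that can share reads. Vegfa, the vascular growth factor, was lower at 71.4, 41.9 and 42.6 CPM in Cd11bDTR against 161, 131 and 146 CPM in control (-1.52, limma adjusted p = 1.99e-05). Ccnd1, which encodes cyclin D1, was lower as well, at 13.8, 9.63 and 8.25 CPM in Cd11bDTR against 28.4, 15.3 and 22.4 CPM in control (-1.01, limma adjusted p = 0.00395).

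Against Cx3cr1 Cx43-/- nodes 13 of the 57 other genes were higher and 16 lower in Cd11bDTR. Over all genes 2.69% were higher and 40.7% lower, so the share of the 57 that was lower was below that of all genes. Timp1 (log2 change 4.82), Serpina3n (5.12), Lcn2 (5.38) and Saa3 (4.60) were again higher, and Stat5b (-1.70), Stat5a (-1.70), Tyk2 (-1.35), Pias3 (-1.26), Vegfa (-1.50) and Ccnd1 (-1.34) again lower. Irf1 (-0.67), Socs1 (-1.17), Socs7 (-0.64), the phosphatase gene Ptpn6 (-1.12) and the interleukin-27 receptor gene Il27ra (-1.22) were also lower, and each lost its call on the common-total scale.

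Marker lists of other cell types were read beside these values. Of 12 neutrophil markers, 4 were at 0 in all Cd11bDTR libraries (Ly6g, Elane, Mpo and Camp), against 4 in all Cx3cr1 Cx43-/- and 6 in all control libraries. Of the low markers, S100a8, S100a9, Cxcr2, Mmp8, Ngp and Retnlg had higher means in Cd11bDTR than in control. Ngp and Retnlg were seen in only 1 Cd11bDTR library each. Camp and Csf3r had lower means. S100a8 was at 3.31, 1.63 and 0 CPM in Cd11bDTR against 0.13, 0 and 0 CPM in control. S100a9 was at 1.43, 1.52 and 0.28 CPM in Cd11bDTR against 0.02, 0 and 0 CPM in control, and Cxcr2 at 0.38, 0.40 and 0.35 CPM in Cd11bDTR against 0.03, 0 and 0 CPM in control. Of these low markers only Csf3r passed the filter and was tested. Mmp9 was lower in Cd11bDTR, at 0.83, 0 and 0.45 CPM against 5.25, 3.4 and 2.91 CPM in control (log2 change -2.31, limma adjusted p = 0.00046). It passed the filter only through control and Cx3cr1 Cx43-/- libraries, so its lower direction is partly set by the filter. All 12 markers, Mmp9 the largest part in control, summed to 1.77 to 7.61 CPM in Cd11bDTR, 3.15 to 6.51 CPM in Cx3cr1 Cx43-/- and 3.96 to 6.57 CPM in control. The 7 monocyte markers summed to 91.5 to 115.7 CPM in Cd11bDTR, 121.0 to 157.4 CPM in Cx3cr1 Cx43-/- and 71.6 to 115.9 CPM in control, with 3 of 6 tested higher than in control and 1 lower. Of these, Chi3l3 passed the filter only through the Cd11bDTR libraries. Over all genes 3.23% were higher than in control and 33.0% lower. F13a1, with Vcan the largest part of the sum in control, had a mean of 8.81 CPM in Cd11bDTR against 49.6 CPM in control. Every other monocyte marker had a higher mean in Cd11bDTR. Among them were Ccr2 (9.74 against 4.21 CPM) and Plac8 (6.98 against 1.03 CPM), both with overlapping libraries. The 8 fibroblast markers summed to 2653 to 2709, 3581 to 3738 and 2759 to 3253 CPM in the same order of groups, with 0 of 8 called against control on the deposited scale. The 7 endothelial markers summed to 167.4 to 278.6, 405.7 to 470.0 and 322.1 to 456.8 CPM. Of the 7, 4 were lower than in control, beside 33.0% of all genes, and 3 were lower under both other scalings. The 7 adipocyte markers summed to 268.6 to 748.4, 267.9 to 305.4 and 248.7 to 286.0 CPM. The 7 T and B cell markers summed to at most 3.81 CPM in any library. The part of these cell types in the changes of the 10 genes was not tested.

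The genes whose course over the 9 libraries was most like that of a called member were found by the root mean square distance between log2(CPM + 0.5) values, each taken relative to its control mean. For Socs3 they were Maff, a stress-responsive transcription factor gene (distance 0.294), Syt12 (0.307) and the alarmin gene Il33 (0.311). For Il6 they were Ptgs2, the inducible cyclooxygenase gene (0.262), Slc28a1 (0.370) and Trim17 (0.412). Osmr was closest to Tiam2 (0.127), the amino acid transporter gene Slc38a2 (0.163) and Cyb561 (0.172), and Lifr to the peroxidasin gene Pxdn (0.114), Sipa1 (0.127) and Fig4 (0.133). The distances are descriptions over 9 libraries of which the 3 from Cd11bDTR differ most.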

How the data were processed

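Bulk RNA of microdissected AV nodes was sequenced in 9 strand-directional libraries, 3 a group. The authors deposited CPM rounded to 2 decimals. The submitters' processing notes list the mm9 genome together with edgeR, HTSeq 0.6.0 and STAR 2.3.0, without saying what each was used for; the annotation is not stated there. Columns were matched to samples by name. Because of the rounding, whole reads were not rebuilt and no count model was fitted, and reads quoted are CPM divided by the step between low values. Intervals and floors of 3 reads cover counting error only where they are given in reads.

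The deposited values were put on a log2 scale after adding 0.5 and tested by limma (version 3.58.1, R 4.3.3). A single model held all 9 libraries, with trended empirical Bayes variance and two-sided tests, and p-values were adjusted by Benjamini-Hochberg over 12925 genes. With 3 libraries against 3 an exact permutation test cannot give a p below 0.1, so the p-values are those of limma. Alternatives were pseudocounts of 0.1 and 2, no filter, rescaling to a common total over listed genes, median-of-ratios scaling, fits of only 2 groups, robust empirical Bayes, and each library left out in turn. The 10 genes and all gene lists were chosen with earlier results of these data known. Named were the 10 genes in every comparison, up to 4 called genes per pathway list and direction with the smallest adjusted p, and the 3 nearest genes of each called member. Osm and Cytl1 were named after their values were seen. Some pathway genes that the rule names are not reported here. RefSeq windows and GENCODE M21 exons are of another build than the reads and were matched by symbol.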

Additional observations from a re-analysis of the deposited data

How the results depend on the processing

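No paired analysis was possible because the labels number the libraries 1 to 9, so the groups compared share no replicate number. The calls of Socs3, Osmr, Il6 and Lifr against control and against Cx3cr1 Cx43-/- kept their direction and threshold under all 16 alternatives run. Their log2 changes over control ranged over 1.88 to 2.94, 1.28 to 1.93, 0.90 to 2.91 and -1.30 to -0.63. Every alternative but the one with no filter kept the filter that Il6 passed only through Cd11bDTR libraries. For Il6 those settings are therefore no separate support. For Cd11bDTR over control, median-of-ratios scaling gave 5 members higher in place of 3 and 6 other pathway genes lower in place of 12. For Cd11bDTR over Cx3cr1 Cx43-/- the members lower numbered 1 in place of 3 with no filter, with a common total and with median-of-ratios scaling. Other pathway genes there were 8 lower with a common total (16 on the deposited scale), while median-of-ratios scaling left 7 lower and made 22 higher (13 on the deposited scale). Leaving out a library gave 1 to 2 members lower against control (2 without Cd11bDTR library 7 or 8) and 1 to 4 against Cx3cr1 Cx43-/- (1 without any of libraries 4, 5 and 6). Other pathway genes lower were 7 (without control library 1) to 21 (without Cd11bDTR library 7) against control and 9 (without library 5) to 24 against Cx3cr1 Cx43-/-. Counts of members higher stayed at 3 in both without any single library. With median-of-ratios scaling Socs2 over control turned to 0.44, and Il6st over Cx3cr1 Cx43-/- turned to 0.069. Over all genes, the split for Cd11bDTR over control was 417 higher and 4261 lower, 1136 and 2534 with a common total, and 1687 and 1675 with median-of-ratios scaling. Without control library 1 the lower count was 2316, and without Cd11bDTR library 9 the higher count was 696. For Cd11bDTR over Cx3cr1 Cx43-/- it was 348 higher and 5256 lower, 1095 and 2702, and 1693 and 1672 under the same settings, 651 higher without Cd11bDTR library 9, and 3060 and 3494 lower without libraries 5 and 6. For Cx3cr1 Cx43-/- over control all counts lay between 0 and 2. The cause was not tested. Low counts limit Il6 (0 to 202 reads a library), Lif (0 to 77 reads a library) and the ligands under the filter.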
